A study of Homo sapiens with 60 samples.

Results

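The 9 genes CDKN1A, MDM2, GDF15, BBC3, TP53I3, SESN1, FAS, TNFRSF10B and GADD45A are established transcriptional targets of the tumour suppressor p53, and they were followed through a screen of herbal extracts on HT29 cells. They were chosen by name, with earlier results of these data known, and the symbol of each matched 1 of the 60675 gene identifiers in the count table. HT29 is an established human colorectal adenocarcinoma line, and the p53 protein it carries is mutant. RNA was sequenced from 60 libraries of cells treated for 24 h, which fall into 25 groups.

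The controls were 3 libraries of cells given the vehicle dimethyl sulfoxide (DMSO), at 0.1% by the sample labels and 2% by the series text, a difference that was not settled. Water extracts of 2 formulas were given at 500, 100 and 20 µg/mL, called high, medium and low here: Yijin-tang with 3 libraries a dose and Soshiho-tang with 2, numbered 2 and 3. Ethanol extracts of Zizyphi Semen, Longan Arillus, Schisandrae Fructus and Liriopis seu Ophiopogonis Tuber were given at the same 3 doses with 3 libraries each. Ethanol extracts of Polygalae Radix at 380, 76 and 15.2 µg/mL and of Aucklandiae Radix at 370, 74 and 14.8 µg/mL had 1 library a dose, so their values carry no replicate check and no test. All treated cells are the 1 line, and the labels do not say whether the libraries of a group came from separate cultures. The library names place the vehicle in set C1, both formulas in set 8, Liriopis seu Ophiopogonis Tuber and Schisandrae Fructus in set 9, Longan Arillus and Zizyphi Semen in set 10 and the remaining extracts in set 11. Extract and library set therefore cannot be told apart in any comparison with the vehicle, while doses of 1 extract, and the 2 extracts of a set, were compared within a set. In these bulk samples fewer cells in a given state and less of an RNA per cell cannot be told apart.

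By GENCODE 29 on GRCh38, CDKN1A lies at chr6:36676460-36687339 (plus strand), MDM2 at chr12:68808176-68850686 (plus), GDF15 at chr19:18374731-18389176 (plus) and BBC3 at chr19:47220822-47232766 (minus). TP53I3 lies at chr2:24077433-24085861 (minus), SESN1 at chr6:108986437-109094819 (minus), FAS at chr10:88990582-89015785 (plus), TNFRSF10B at chr8:23020133-23069179 (minus) and GADD45A at chr1:67685061-67688338 (plus). All 9 are protein-coding genes. Each interval spans the whole gene, introns included.

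When DNA is damaged, normal p53 binds response elements in its target genes and raises their transcription. CDKN1A encodes p21, the inhibitor of cyclin-dependent kinases that halts the cell cycle, and MDM2 encodes the ubiquitin ligase that degrades p53 and closes a feedback loop. GDF15 is a secreted stress cytokine of the TGF-beta superfamily, BBC3 encodes the BH3-only death protein PUMA, and TP53I3 an oxidoreductase. SESN1 restrains mTORC1, FAS and TNFRSF10B (DR5) are death receptors, and GADD45A acts in growth arrest and DNA repair. Several of these genes have other inputs: CDKN1A, GDF15 and TNFRSF10B also respond to growth factor signalling or to the ATF4 and CHOP arm of the stress response, and SESN1 is also a FOXO target. Most missense mutants of p53 bind these response elements poorly.

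CDKN1A and GDF15 had the highest called rises of the 9 genes in any extract dose, so the 250 bases before their start sites are shown, from RefSeq on GRCh38.p14, 5′ to 3′ on the gene's strand. Capitals mark GC boxes (GGGCGG on either strand) and the TATA box (TATAAA). The CDKN1A window is chr6:36678464-36678713 and the GDF15 window chr19:18385908-18386157, both on the plus strand.
CDKN1A: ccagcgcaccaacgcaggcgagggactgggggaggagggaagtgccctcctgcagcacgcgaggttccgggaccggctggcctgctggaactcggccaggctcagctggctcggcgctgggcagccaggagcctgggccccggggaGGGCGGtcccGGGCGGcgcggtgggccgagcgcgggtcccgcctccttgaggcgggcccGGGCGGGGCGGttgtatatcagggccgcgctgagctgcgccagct
GDF15: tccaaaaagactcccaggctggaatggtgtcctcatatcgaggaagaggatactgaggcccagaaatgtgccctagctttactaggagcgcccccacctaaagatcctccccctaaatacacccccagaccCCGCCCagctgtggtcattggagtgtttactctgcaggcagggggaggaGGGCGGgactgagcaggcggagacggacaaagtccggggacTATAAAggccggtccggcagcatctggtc
The CDKN1A window is 76.4% G and C and holds 4 GC boxes and no TATAAA. The GDF15 window is 58.4% G and C, with 2 GC boxes and a TATA box that begins 29 bases before the start. A GC box was found in 42.6% of all 35116 promoter windows of this length and TATAAA in 10.7%. The other motifs searched on both strands were the E-box (CACGTG), the AP-1 site (TGANTCA), the cAMP response element (TGACGTCA, in 1.65% of windows), the CHOP-ATF composite element (TGATGNAAN, 3.13%), the NF-kB core (GGGANTTCC, 1.59%) and the p53 half-site (5.57%), 1 of the pair that makes up a full response element, and neither window held any of them. Only the 250 bases before a start were searched, so a motif or p53 response element elsewhere in or near a gene would have been missed. Among the other members, 1 window each was matched for BBC3 and TP53I3. The BBC3 window holds 1 CACGTG (in 6.34% of windows) and 1 TGANTCA (in 6.57%), and the TP53I3 window held none of the motifs.

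Libraries held 18161717 to 35128954 expected counts, estimated per gene and not always whole. Levels are given as CPM, a gene's counts relative to the library total after TMM scaling, and differences as log2 fold changes with the standard error (SE). Of 14 colon epithelium markers, 12 were above 1 CPM in all libraries; CDX1 and GPA33 fell below that in at least 1. A pair of libraries stood apart. In Yijin-tang low replicate 2, 10.7% of counts came from ribosomal protein genes; the next highest share was 5.52%. In Soshiho-tang high replicate 3, the 5 erythroid markers summed to 9.72 CPM, with HBD at 0, against at most 0.329 CPM elsewhere, and the 8 leukocyte markers to 22.5 CPM against at most 9.46. Results that rest on either library are given with and without it. Leaving out any Soshiho-tang library leaves its group with a single one, so a p-value there takes its spread from other groups.

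Across the 18 replicated extract doses, 6 of the 162 member comparisons with the vehicle passed the test (edgeR's quasi-likelihood test, Benjamini-Hochberg adjusted p under 0.05), 5 higher and 1 lower. An unadjusted p under 0.05 was reached in 23. High-dose Soshiho-tang held 4 of the 6: CDKN1A, GDF15 and TNFRSF10B rose and SESN1 fell. The other 2 were BBC3 and TP53I3 at low-dose Yijin-tang. At high-dose Soshiho-tang 7.93% of the 16890 genes tested were called, 4.17% higher and 3.76% lower, beside 3 and 1 of the 9 members. The members were chosen with earlier results of these data known, so setting them beside these shares is no test of the 9 as a set. At its medium and low doses 0.237% and 0.101% of genes were called, and no member. The shares at high, medium and low dose were 1.05%, 0.42% and 12.1% for Yijin-tang, 0.45%, 0.379% and 0.491% for Liriopis seu Ophiopogonis Tuber, 0.693%, 0.474% and 0.16% for Schisandrae Fructus, 0.077%, 0.0118% and 0.107% for Longan Arillus and 0.16%, 0.0296% and 0.0355% for Zizyphi Semen. All 18 comparisons share the same 3 vehicle libraries. The map of log2 differences shows each gene at all 24 doses.

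**Figure D1:**
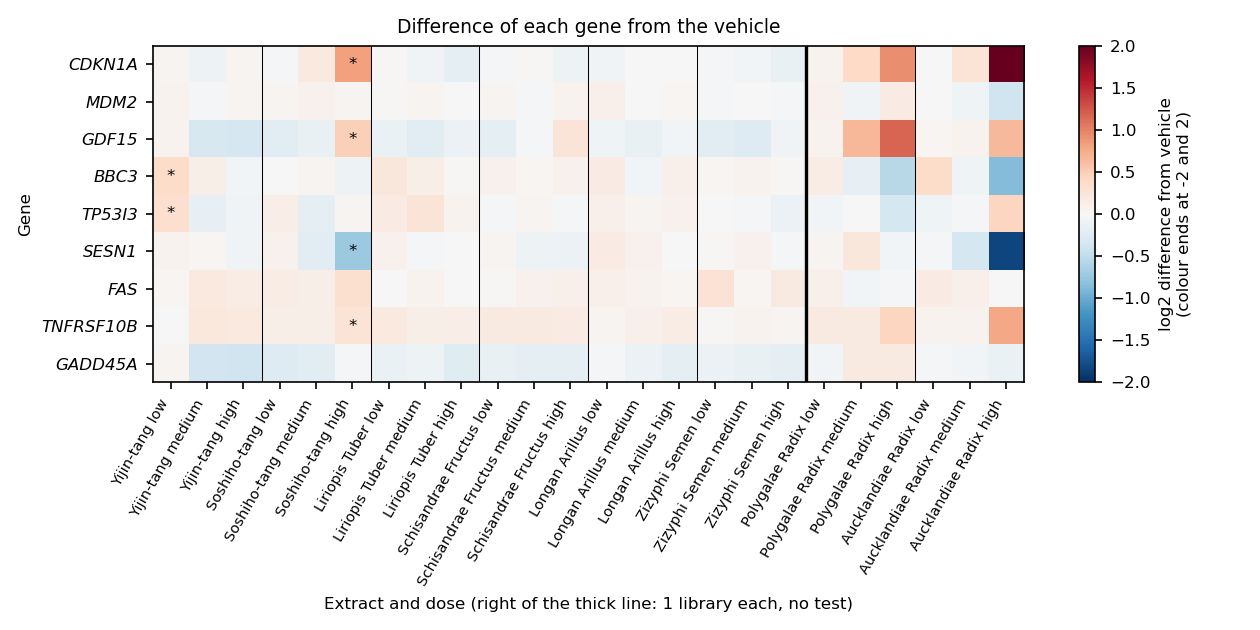
Log2 difference from the vehicle for the 9 genes (vertical) at each of the 24 extract doses (horizontal), with the colour scale ending at −2 and 2. An asterisk marks an adjusted p under 0.05 and the columns to the right of the thick line are single libraries without a test; the asterisks of high-dose Soshiho-tang are on CDKN1A, GDF15, TNFRSF10B and SESN1.

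CDKN1A was higher in cells given high-dose Soshiho-tang than in the vehicle or any other replicated group. The vehicle libraries were at 11.9, 10.6 and 10.7 CPM, and the high-dose Soshiho-tang libraries at 17.3 and 21.8 CPM. Medium-dose libraries were at 12.5 and 12.9 CPM and low-dose libraries at 10.2 and 11.3 CPM. Both high-dose and both medium-dose libraries lay above the 3 vehicle libraries, and the low dose overlapped them. At the high dose CDKN1A rose 1.77-fold (log2 0.82, SE 0.09, 95% confidence interval 0.633 to 1.016, adjusted p = 2.11e-08 by edgeR's quasi-likelihood test). With each of the 5 libraries left out in turn, log2 values were 0.645 to 0.974, and the call held without each vehicle library. The lowest of these values was without replicate 3 and its erythroid and leukocyte markers, which leaves a single high-dose library. At the medium dose the log2 difference was 0.20 (adjusted p = 0.898), and 0.237% of genes were called there.

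CDKN1A in the other replicated groups stayed close to the vehicle. Yijin-tang at the same high dose had 11.5, 10.9 and 12.2 CPM, and high-dose Liriopis seu Ophiopogonis Tuber had 10.3, 9.26 and 9.69 CPM. The latter group had the lowest mean, 9.76 CPM, below all vehicle libraries, with a log2 difference of −0.18 that was not called. Of the 57 treated libraries, 10 were above the vehicle's range, 19 below it and 28 within it. Ordered by group mean, CDKN1A was at 99.9 CPM in high-dose Aucklandiae Radix, 21.2 in high-dose Polygalae Radix, 19.6 ± 3.14 (SD, n = 2) in high-dose Soshiho-tang, 14.7 in medium-dose Polygalae Radix, 13.4 in medium-dose Aucklandiae Radix and 12.7 ± 0.326 in medium-dose Soshiho-tang. At their different high doses, the Polygalae Radix value lies between the 2 Soshiho-tang libraries, and from low-dose Polygalae Radix at 11.7 CPM downward the groups overlap their neighbours. The plot of CDKN1A, GDF15 and SESN1 by library shows this order.

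**Figure D2:**
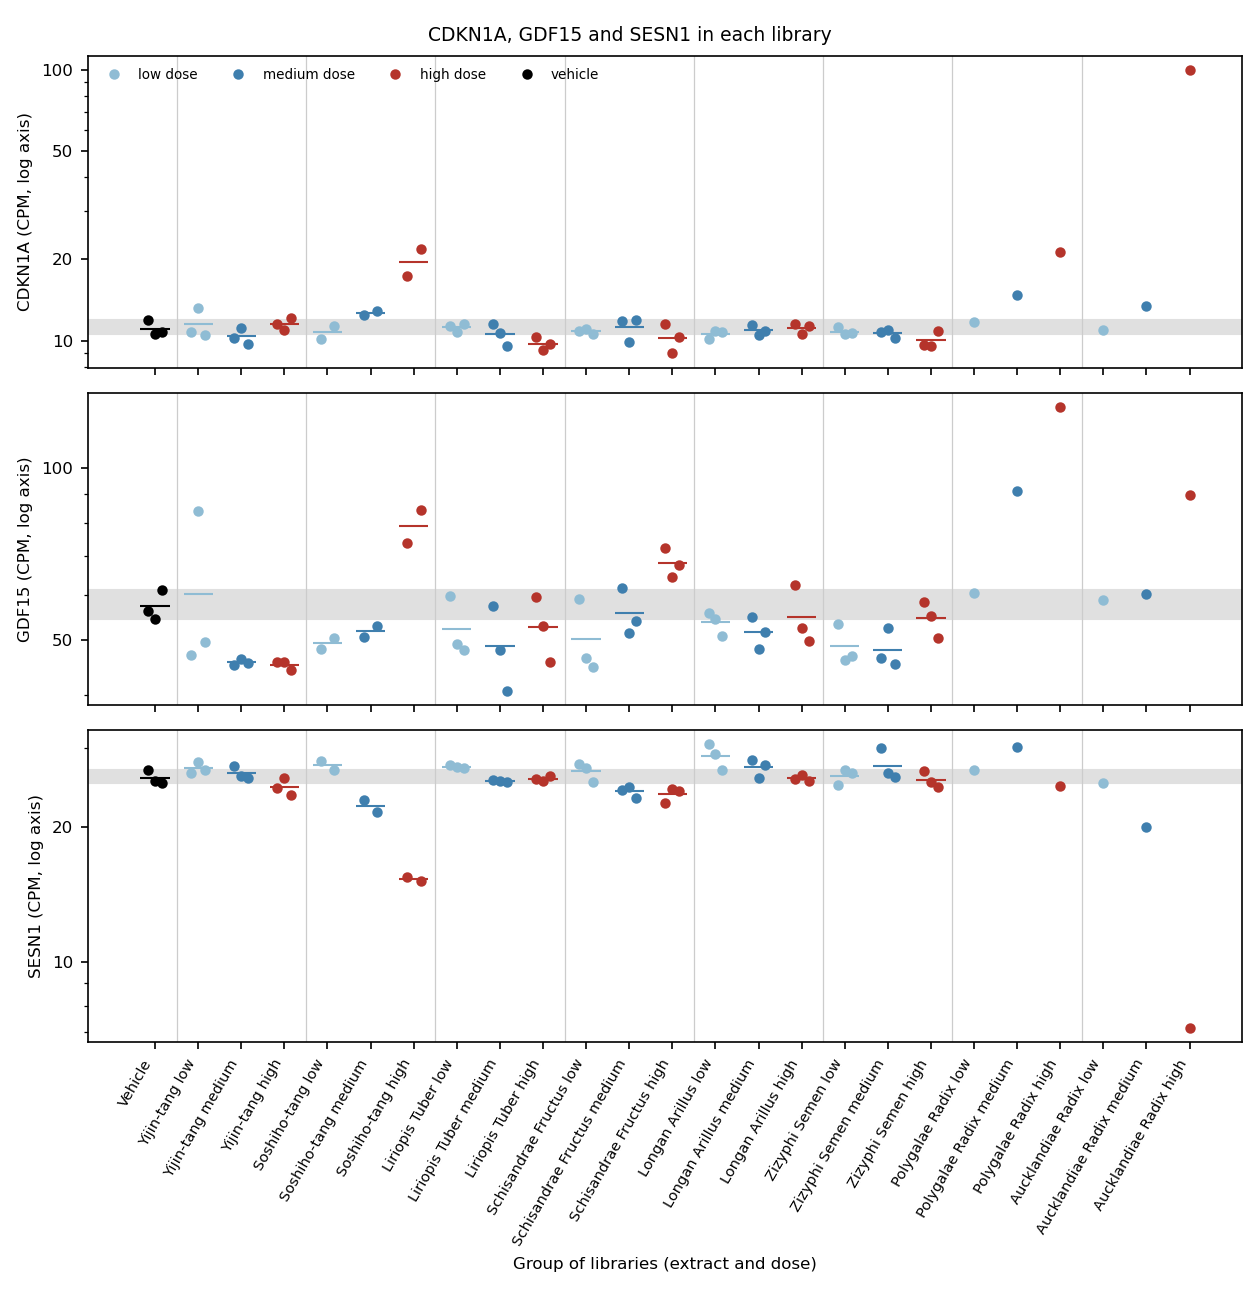
CPM on a log axis for CDKN1A, GDF15 and SESN1 in each library, by extract and dose, with the vehicle's range as a grey band and a line at each group mean. High-dose Soshiho-tang (17.3 and 21.8 CPM) and the single high-dose libraries of Aucklandiae Radix (99.9 CPM) and Polygalae Radix (21.2 CPM) stand highest for CDKN1A. The medium doses of these extracts also lie above its band. For SESN1, high-dose Soshiho-tang and Aucklandiae Radix stand lowest, while high-dose Polygalae Radix (24.7 CPM) is just below the band.

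GDF15 rose in the same high-dose Soshiho-tang cells, by less and with less support. The vehicle libraries were at 56.1, 54.3 and 61.1 CPM and the high-dose libraries at 74.0 and 84.5 CPM. At the medium dose they were at 50.6 and 52.9 CPM and at the low dose at 48.2 and 50.4 CPM. The high dose lay above the vehicle and the lower doses below it, with no overlap. The high-dose difference was 1.39-fold (log2 0.47, SE 0.15, adjusted p = 0.0405 by edgeR's quasi-likelihood test). It was no longer called when any 1 of the vehicle libraries was left out: the adjusted p was 0.101, 0.114 and 0.0519 without replicates 1, 2 and 3. Leaving out Soshiho-tang replicate 2 or 3 leaves a single high-dose library, and without replicate 3 the log2 value was 0.37.

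Elsewhere GDF15 was mostly below the vehicle. Of the 57 treated libraries, 34 were below the vehicle's range, 11 above it and 12 within it, and the log2 difference was above 0 in 3 of the 18 replicated comparisons, with a median of −0.14. Each of the 18 uses the same 3 vehicle libraries, a library set of their own, so extract and library set cannot be told apart here. High-dose Yijin-tang had 45.6, 45.6 and 44.2 CPM, a log2 difference of −0.34 (adjusted p = 0.309, with 1.05% of genes called). Without the 2 libraries that stood apart this difference, still −0.34, was called (adjusted p = 0.0272, with 7.48% of genes called), as was medium-dose Yijin-tang at −0.33 (adjusted p = 0.0483, with 4.56% called). High-dose Schisandrae Fructus went the other way, with 72.5, 64.4 and 67.5 CPM, and was not called (log2 0.25, adjusted p = 0.603, with 0.693% of genes called).

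By group mean, GDF15 was at 128 CPM in high-dose Polygalae Radix, 91.1 in the medium dose, 89.7 in high-dose Aucklandiae Radix, 79.2 ± 7.47 (SD, n = 2) in high-dose Soshiho-tang and 68.1 ± 4.08 (SD, n = 3) in high-dose Schisandrae Fructus. Next were low-dose Polygalae Radix at 60.3 CPM and low-dose Yijin-tang at 60.3 ± 20.7 CPM (SD, n = 3). That last spread came from replicate 2, at 84.1 CPM beside 47.1 and 49.6 CPM. The vehicle followed these and medium- and low-dose Aucklandiae Radix, and neighbours below it overlapped down to high-dose Yijin-tang at 45.2 ± 0.809 CPM (SD, n = 3). The GDF15 receptor GFRAL was listed at 0 in all libraries, and its partner RET did not exceed 0.0481 CPM.

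SESN1 fell at high-dose Soshiho-tang. Vehicle libraries were at 26.7, 25.3 and 25.1 CPM, and high-dose Soshiho-tang libraries at 15.5 and 15.2 CPM. The medium dose had 22.9 and 21.6 CPM and the low dose 28.1 and 26.8 CPM. High and medium doses lay below all vehicle libraries and the low dose above them. At the high dose SESN1 fell to 0.596 of the vehicle level (log2 −0.75, SE 0.06, adjusted p = 2.98e-12 by edgeR's quasi-likelihood test). In the 5 leave-outs the log2 value was −0.77 to −0.72, and the call held without each vehicle library. At the medium dose the log2 difference was −0.21 (adjusted p = 0.235), and without the 2 libraries that stood apart it was −0.21 and called (adjusted p = 0.0433, with 1.73% of genes called). In the same setting SESN1 was called higher at low-dose Longan Arillus (log2 0.17, adjusted p = 0.0422, with 4.94% of genes called).

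SESN1 reached its lowest value, 7.13 CPM, in the high-dose Aucklandiae Radix library and its highest, 30.5 CPM, in low-dose Longan Arillus replicate 1. In ascending order, high-dose Aucklandiae Radix was followed by high-dose Soshiho-tang at 15.3 ± 0.219 CPM (SD, n = 2), medium-dose Aucklandiae Radix at 20.0 CPM, medium-dose Soshiho-tang at 22.3 ± 0.936 CPM (SD, n = 2) and high-dose Schisandrae Fructus at 23.7 ± 0.898 CPM (SD, n = 3). The remaining groups, with means from 24.0 to 30.1 CPM, overlapped their neighbours. Its relative SESN3 also fell at high-dose Soshiho-tang, from 2.81 to 1.72 CPM (log2 −0.70, adjusted p = 0.0161), while SESN2 was at 12.2 ± 0.597 CPM in the vehicle and 11.5 ± 0.485 CPM there. Sestrins inhibit mTORC1 when amino acids are scarce.

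TNFRSF10B was 1.21-fold higher at high-dose Soshiho-tang, the smallest of the called differences there. The vehicle had 35.5, 31.8 and 31.5 CPM and the high dose 41.4 and 38.6 CPM, which did not overlap. The log2 difference was 0.28 (SE 0.08, adjusted p = 0.0296 by edgeR's quasi-likelihood test). Its call was lost without vehicle replicate 2 (adjusted p = 0.094) or vehicle replicate 3 (0.117). It was also lost with library totals as the only scaling (0.104), with no filter on low counts (0.12) and with only these groups in the fit (0.153). Over all leave-outs the log2 difference ran from 0.23 to 0.337, and leaving out Soshiho-tang replicate 2 or 3 leaves a single high-dose library. So does leaving out both libraries that stood apart, where the difference was 0.33.

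A small excess of TNFRSF10B over the vehicle ran through the screen. Of the 57 treated libraries, 38 were above the vehicle's range and 1 below it, Yijin-tang low replicate 2 at 25.6 CPM, and the log2 difference was above 0 in 17 of 18 comparisons, with a median of 0.13. All 18 rest on the 3 vehicle libraries. With the libraries that stood apart left out, the comparisons of high- and medium-dose Yijin-tang (0.19 and 0.21), low-dose Liriopis seu Ophiopogonis Tuber (0.19, adjusted p = 0.0245, 6.54% of genes called) and medium-dose Schisandrae Fructus (0.18, adjusted p = 0.0387, 6.06% of genes called) were called. RHOBTB2 overlaps TNFRSF10B on the opposite strand at a median of 11.5 CPM, and whether the counting used strand is not given in the sources used here.

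FAS, the other death receptor, was at 4.86, 6.47 and 5.70 CPM in the vehicle and 7.13 and 7.06 CPM at high-dose Soshiho-tang. Both treated libraries were above the vehicle, and the log2 difference of 0.32 (SE 0.11, adjusted p = 0.0738) was not called. Across all 60 libraries FAS stayed between 4.83 and 7.46 CPM. Of the ligands, FASLG was not above 0.0374 CPM in the vehicle, and TNFSF10 (TRAIL), which binds TNFRSF10B, fell from 4.51 to 2.35 CPM at high-dose Soshiho-tang (log2 −0.93, adjusted p = 0.00047).

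BBC3 and TP53I3 rose at low-dose Yijin-tang, and both calls rest on replicate 2. BBC3 was at 8.25, 8.00 and 7.57 CPM in the vehicle and 8.20, 13.9 and 8.90 CPM at low-dose Yijin-tang. TP53I3 was at 8.69, 8.41 and 9.34 CPM in the vehicle and 9.10, 14.4 and 9.92 CPM there. In each case replicate 2 was far above and another library lay within the vehicle's range. The log2 differences were 0.37 (SE 0.12, adjusted p = 0.0401) and 0.33 (SE 0.11, adjusted p = 0.0433), in a comparison where 12.1% of genes were called. Without replicate 2 they were 0.11 for both (adjusted p = 0.698 and 0.664). Leaving out vehicle replicate 1, 2 or 3 also ended both calls, with adjusted p values of 0.0748, 0.0746 and 0.112 for BBC3 and 0.112, 0.112 and 0.064 for TP53I3. With no filter on low counts the adjusted p values were 0.0559 and 0.08, and with only these groups in the fit 0.885 for both. The same library had the highest GADD45A of all, 30.7 CPM, and the lowest TNFRSF10B.

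At high-dose Soshiho-tang BBC3 was at 7.32 and 7.41 CPM, just below the vehicle, with a log2 difference of −0.11 (95% confidence interval −0.389 to 0.171). TP53I3, at 8.30 and 10.0 CPM, overlapped the vehicle, with a log2 difference of 0.06 (interval −0.189 to 0.31). BBC3 was lowest in the single libraries of high-dose Aucklandiae Radix, 4.29 CPM, and high-dose Polygalae Radix, 5.35 CPM.

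MDM2 had the narrowest range of differences from the vehicle among the 9 genes over the 18 replicated comparisons. It was at 57.5, 62.8 and 58.6 CPM in the vehicle and 60.5 and 63.9 CPM at high-dose Soshiho-tang, which overlapped (log2 0.06, 95% confidence interval −0.081 to 0.203). Its log2 difference in them ran from −0.05 to 0.10 and none was called. The lowest library was high-dose Aucklandiae Radix at 45.3 CPM, below the next lowest at 53.5 CPM. A processed pseudogene lies inside MDM2 on the same strand, at a median of 2.78 CPM, and reads shared with it could have been split by the counting.

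GADD45A was at 20.3, 22.2 and 21.9 CPM in the vehicle, and 40 of the 57 treated libraries were below that range. High-dose Yijin-tang had 18.1, 16.2 and 14.6 CPM and medium-dose Yijin-tang 17.7, 15.7 and 16.2 CPM, all below the vehicle. Their log2 differences, −0.40 (adjusted p = 0.132) and −0.38, were not called with all libraries, at a background of 1.05% and 0.42%. Without the 2 libraries that stood apart they were −0.39 and −0.37 and called (adjusted p = 0.00371 and 0.00988, with 7.48% and 4.56% of genes called). At high-dose Soshiho-tang GADD45A was at 20.9 ± 0.343 CPM (SD, n = 2), a log2 difference of −0.03. In all, the CPM ranges of 6 of the 9 members at high-dose Soshiho-tang did not overlap those of the vehicle, against 33.7% of all genes tested.

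**Figure D3:**
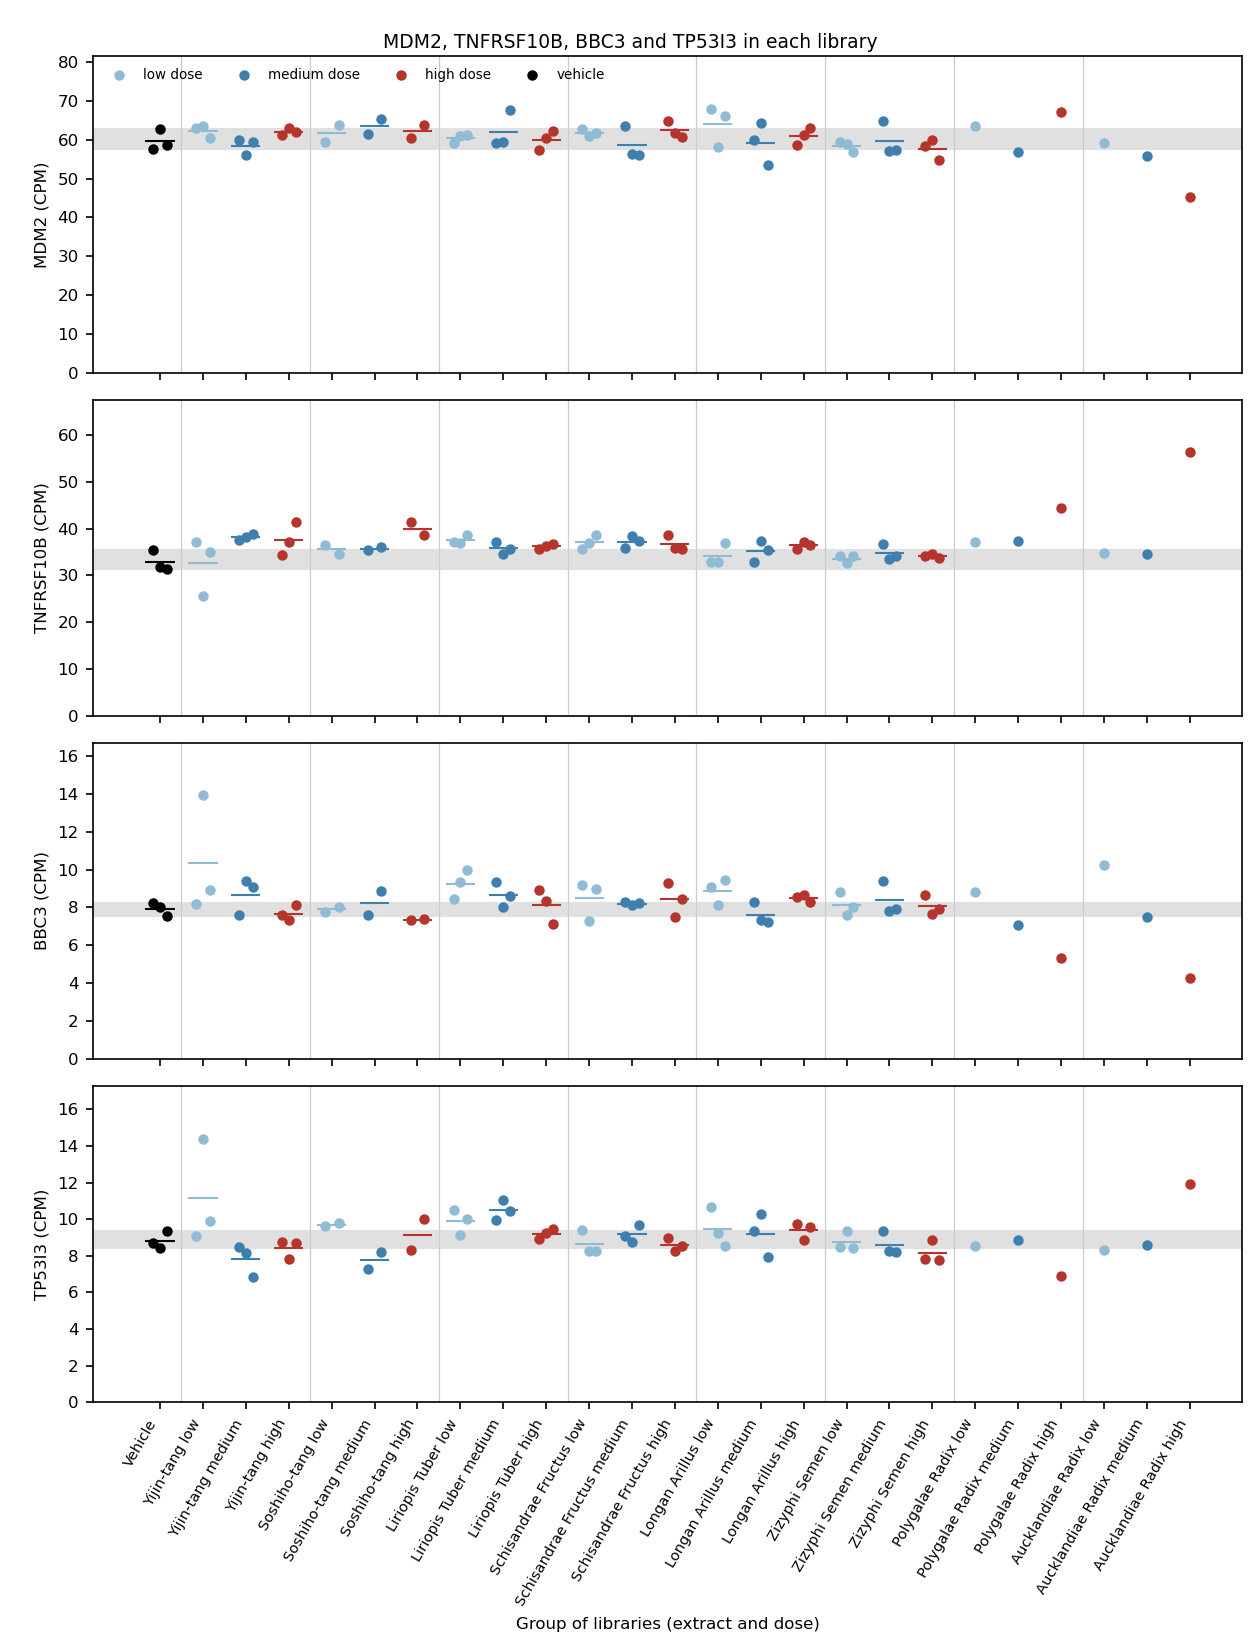
CPM from 0 for MDM2, TNFRSF10B, BBC3 and TP53I3 in each library, by extract and dose, with the vehicle's range as a grey band and a line at each group mean. Low-dose Yijin-tang replicate 2 stands out in BBC3 (13.9 CPM) and TP53I3 (14.4 CPM), and the single high-dose Aucklandiae Radix library in MDM2 (45.3 CPM) and TNFRSF10B (56.4 CPM).

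Comparing high with low dose of the same extract leaves the vehicle and its library set out. Of 54 such member comparisons, 8 passed edgeR's quasi-likelihood test, 3 in Soshiho-tang and 5 in Yijin-tang, 13 had an unadjusted p under 0.05, and DESeq2 also called 8. In Soshiho-tang, where 6.29% of genes were called, CDKN1A was 1.82-fold higher at the high dose (log2 0.87, SE 0.11, adjusted p = 1.3e-07) and GDF15 1.61-fold higher (log2 0.69, SE 0.17, adjusted p = 0.00619). SESN1 was at 0.558 of its low-dose level (log2 −0.84, SE 0.07, adjusted p = 1.24e-12). Each of the 4 leave-outs leaves a single library in a group, so only effect sizes are given. Log2 values were then 0.688 to 1.017 for CDKN1A, −0.873 to −0.807 for SESN1 and 0.586 to 0.778 for GDF15. The other 6 members did not pass, from −0.10 for BBC3 to 0.23 for GADD45A. Dose groups shared no library, so these values do not rest on the vehicle.

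In Yijin-tang, where 21% of genes were called, the 5 calls rested on low-dose replicate 2. GDF15 (log2 −0.41, SE 0.14), BBC3 (−0.42, SE 0.12), TP53I3 (−0.39, SE 0.11) and GADD45A (−0.45, SE 0.12) were lower at the high dose, with adjusted p values of 0.0306, 0.0169, 0.0147 and 0.0136, and TNFRSF10B was higher (0.21, SE 0.08, adjusted p = 0.0498). Without that library the same values were −0.10, −0.15, −0.17, −0.15 and 0.06, none called, and 0.675% of genes were called without both libraries that stood apart. Some calls were also lost without a high-dose library: GDF15 without replicate 1, 2 or 3 (adjusted p = 0.067, 0.0744 and 0.079), BBC3 without replicate 1 or 2 (0.052 and 0.067), TP53I3 without replicate 2 (0.0699), TNFRSF10B without replicate 2 or 3 (0.0932 and 0.256) and GADD45A without replicate 3 (0.0666). With only these groups in the fit the adjusted p was 0.763 for each of the 5. The plot of dose steps shows the Soshiho-tang and Yijin-tang values side by side.

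No member passed the test between high and low dose of the 4 single-herb extracts with replicates. In Schisandrae Fructus, where 0.189% of genes were called, GDF15 was at 72.5, 64.4 and 67.5 CPM at the high dose and 58.9, 46.5 and 44.8 CPM at the low dose. These did not overlap, as in 13.1% of all genes, and the log2 difference was 0.45 (SE 0.14, adjusted p = 0.498). Without the 2 libraries that stood apart, both in another set, it was 0.45 and called (adjusted p = 0.0124, with 0.533% of genes called). In Longan Arillus (0.0178% of genes called), SESN1 was at 25.6, 26.1 and 25.3 CPM at the high dose and 30.5, 29.1 and 26.8 CPM at the low dose, without overlap (19.1% of all genes), a log2 difference of −0.17 (adjusted p = 0.894). Without the 2 libraries that stood apart this too was called at −0.17 (adjusted p = 0.0377, with 5.65% of genes called). In Liriopis seu Ophiopogonis Tuber (0% of genes called) CDKN1A differed by −0.20 (adjusted p = 1), and in Zizyphi Semen (0.0533%) no member was called.

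**Figure D4:**
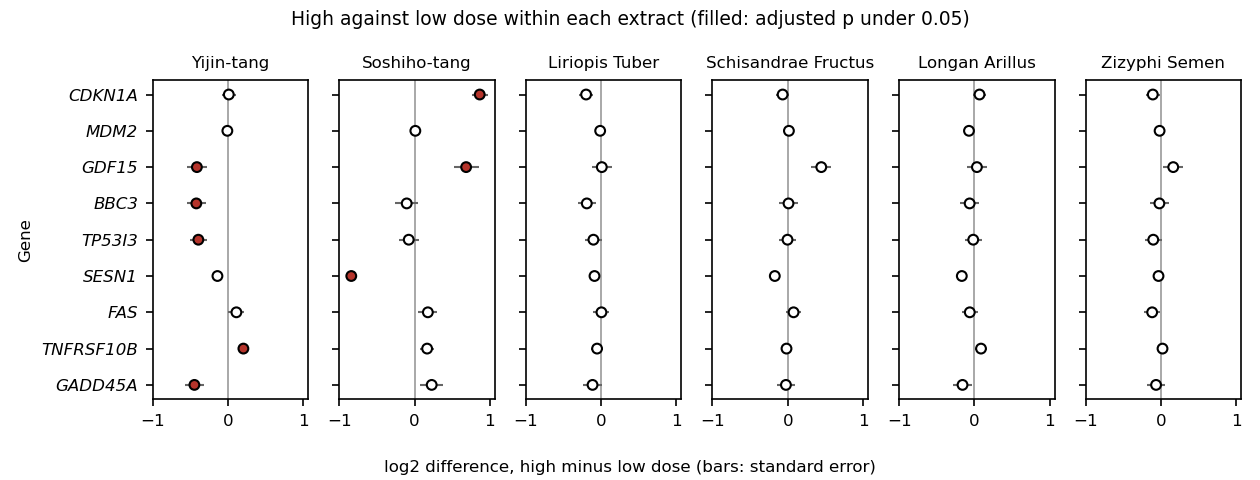
High minus low dose log2 difference with its SE for each of the 9 genes in the 6 extracts with replicates; filled points had an adjusted p under 0.05. Soshiho-tang has filled points for CDKN1A (0.87), GDF15 (0.69) and SESN1 (−0.84), and the filled points of Yijin-tang are the 5 that were not called without low-dose replicate 2.

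Between extracts of 1 set at the high dose, 3 of 27 member comparisons were called, all between Yijin-tang and Soshiho-tang, where 3.73% of genes were called; 6 had an unadjusted p under 0.05 and DESeq2 called 3. Relative to Soshiho-tang, cells given Yijin-tang had less CDKN1A (log2 −0.76, SE 0.10, adjusted p = 2.73e-07), less GDF15 (−0.81, SE 0.15, adjusted p = 0.000339) and more SESN1 (0.68, SE 0.06, adjusted p = 9.13e-11). The libraries of the 2 formulas did not overlap for any of these genes, which held for 30.2% of all genes. In the 5 leave-outs the log2 values ran from −0.914 to −0.585, −0.904 to −0.712 and 0.647 to 0.71, in the same order of genes. The calls held without each Yijin-tang library, while leaving out a Soshiho-tang library leaves a single one in its group. GADD45A differed by −0.36 and was not called (adjusted p = 0.174). The step from low to high dose itself differed between the 2 formulas for these genes and for GADD45A, 4 of 27 such tests, with 4.38% of genes called; between the other pairs 0.00592% and 0% were. No member was called between Schisandrae Fructus and Liriopis seu Ophiopogonis Tuber (0.0947% of genes called) or between Zizyphi Semen and Longan Arillus (0.0237%).

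The other 63 listed p53 targets did not move one way at high-dose Soshiho-tang. Of the 59 tested, 11 were higher and 5 lower, beside 4.17% and 3.76% of all genes, with a median log2 difference of 0.02 against 0.00 over all genes. Among arrest and feedback genes, 1 of 10 was higher and 3 lower: BTG2, an antiproliferative gene, fell from 37.4 to 17.0 CPM (log2 −1.13, SE 0.09, adjusted p = 4.56e-13), TP53INP1 fell (−0.67, adjusted p = 0.00249) and the kinase PLK3 rose (0.57, adjusted p = 7.35e-05). In the apoptosis list 3 of 12 were higher, the BH3-only gene PMAIP1 (0.69, adjusted p = 0.00702), PERP (0.30, adjusted p = 0.0145) and the nuclease AEN (0.26, adjusted p = 0.0112). Without the 2 libraries that stood apart, which leaves a single high-dose library, PMAIP1 was at 0.42 and PERP at 0.11. None of 6 DNA repair genes was called with all libraries. FUCA1, a lysosomal fucosidase, was the only called gene of 8 in metabolism and autophagy and fell (−0.32, adjusted p = 3.62e-05). In signalling, 7 of 23 were higher and 1 lower, led by the cytokines CSF1 (1.14, adjusted p = 0.00814) and LIF (0.99, adjusted p = 1.27e-09) and the growth factor TGFA (0.48, adjusted p = 0.000153). Over all 59 without the 2 libraries that stood apart, the median was −0.01, as over all genes.

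Genes around the members were read in the same comparison, where 4.17% of all genes were called higher and 3.76% lower. Of 13 ATF4 and CHOP stress genes, 5 were higher and none lower, with a median of 0.30: TRIB3 (0.59, adjusted p = 7.29e-06), DDIT4 (0.57, adjusted p = 0.00549) and PPP1R15A (0.46, adjusted p = 0.0244) led. That median was 0.07 without the 2 libraries that stood apart, which leaves a single high-dose library, and DDIT4 was then at 0.39. Of 12 G1 genes tested, CDKN1C, a relative of CDKN1A, fell (−1.18, adjusted p = 0.00524) and CCND3 rose (0.21, adjusted p = 0.0341). Of 19 G2 and mitosis genes that p21 is known to lower through the DREAM complex, 2 were higher, CCNA2 (0.17, adjusted p = 0.0391) and CDC20 (0.16, adjusted p = 0.0407), and none lower. Of 16 death receptor and BCL2 family genes, 3 were higher, BMF (0.78, adjusted p = 2.71e-05), TNFRSF1A (0.31, adjusted p = 0.00238) and MCL1 (0.19, adjusted p = 0.0495), and 1 lower, TNFSF10 (−0.93). Counts for these lists without the 2 libraries that stood apart are not given, since a single high-dose library is left.

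At high-dose Yijin-tang, where 1.05% of all genes were called, 0 of the 59 other p53 targets were higher and 4 lower. Their median was −0.04 against −0.01 over all genes. The 4 were RNF19B (log2 −0.41, adjusted p = 9.32e-06), BTG2 (−0.38, adjusted p = 0.00211), the RNA-binding ZMAT3 (−0.31, adjusted p = 0.0326) and FUCA1 (−0.23, adjusted p = 0.00738). RNF19B was also called lower at the other Yijin-tang doses and at every dose of Soshiho-tang, Liriopis seu Ophiopogonis Tuber and Schisandrae Fructus. The same held at high- and low-dose Longan Arillus (−0.306 and −0.324) and at high-dose Zizyphi Semen (−0.342). The RNF19B log2 difference was −0.385 at low-dose Soshiho-tang, −0.397 at high-dose Liriopis seu Ophiopogonis Tuber and −0.411 at high-dose Schisandrae Fructus. ZMAT3 was also called lower at high-dose Zizyphi Semen (−0.394). These comparisons share the same 3 vehicle libraries, so the falls are not particular to Yijin-tang. CDKN1A differed from the vehicle there by 0.06 (95% confidence interval −0.12 to 0.24). Without the 2 libraries that stood apart the counts were 2 higher and 7 lower, where 7.48% of all genes were called.

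The 2 extracts with 1 library a dose gave the highest CDKN1A and GDF15 of the screen. At high-dose Aucklandiae Radix, CDKN1A was at 99.9 CPM (95% exact binomial interval 95.9 to 104, for counting error only), 8.95 times the vehicle mean of 11.1 CPM. Its ratio ranked 54 from the top of 16890 genes. SESN1 was at 7.13 CPM (6.09 to 8.29), 0.28 of the vehicle mean. These 2 members were at least 2-fold away from the vehicle mean and outside its range, as were 16.3% of genes.

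The remaining members of that library were nearer to the vehicle. TNFRSF10B was at 56.4 CPM (53.4 to 59.5; 1.71 times the vehicle mean), GDF15 at 89.7 CPM (85.9 to 93.6; 1.57 times) and TP53I3 at 11.9 CPM (10.6 to 13.4; 1.35 times), all above the vehicle's range. BBC3 was at 4.29 CPM (3.49 to 5.21; 0.545 of the mean) and MDM2 at 45.3 CPM (42.6 to 48.1; 0.76), both below it. FAS (1.01) and GADD45A (0.908) were close to the vehicle. In this library the mitochondrial share of counts was 7.60%, the lowest of all, against 10.6% to 13.6% in the vehicle, and ribosomal protein genes took 3.48%. The 4 endothelial markers summed to 9.21 CPM, against at most 2.47 CPM elsewhere. PECAM1 at 8.83 CPM and VWF at 0.382 CPM had their highest values of the screen there. KDR and CDH5 were at 0 there, as in most libraries (59 and 56 of the 60 at 0). The part of these shares and markers in the member values was not tested. The summed colon markers were at 15090 CPM, above the vehicle's 12230 to 14250 CPM. Most of that sum was KRT8 (8235 CPM) and KRT18 (4668 CPM), and single markers went both ways. CDX1, CDX2, GPA33, HNF4A (45.9 CPM) and TFF3 (1.15 CPM) had their lowest values of the screen there. KRT20 (715.5 CPM), CEACAM5 (21 CPM) and CDH1 (513.7 CPM) had their highest.

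Lists around the members spread widely in the same Aucklandiae Radix library. There 16.3% of all genes were at least 2-fold from the vehicle mean, in either direction, and outside its range. Of 59 other p53 targets, 15 were at least 2-fold higher and 2 lower, with a median log2 ratio of 0.24 against −0.03 over all genes. CSF1 (3.78), SPHK1 (2.39) and PLK3 (2.20) were among the highest, and BTG2 (−2.88) and CCNG1 (−1.04) were the lower 2. Of 13 ATF4 and CHOP genes 7 were higher, with a median of 1.3, among them ATF3 (2.88), DDIT3, which encodes CHOP (2.12), and PPP1R15A (1.77). Of 19 G2 and mitosis genes 9 were lower and none higher, with a median of −0.96, led by TOP2A (−1.70), CDC25C (−1.66) and AURKB (−1.37). At the medium dose CDKN1A was at 13.4 CPM (12.1 to 14.9) and SESN1 at 20.0 CPM (18.4 to 21.8), outside the vehicle's range on the same sides, with 1.81% of genes past 2-fold. At the low dose they were at 11.0 and 25.1 CPM, CDKN1A within the range and SESN1 just under it, with 1.47% of genes past 2-fold.

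At high-dose Polygalae Radix, GDF15 was the member farthest from the vehicle. GDF15 was at 128 CPM (124 to 132), 2.24 times the vehicle mean, and was the member past 2-fold, as were 3.1% of genes. Its ratio ranked 88 from the top. CDKN1A was at 21.2 CPM (19.5 to 23.0; 1.91 times) and TNFRSF10B at 44.4 CPM (42.0 to 47.0; 1.35 times), both above the vehicle's range. SESN1, at 24.7 CPM, was 0.959 of the vehicle mean and just below its range. BBC3, at 5.35 CPM (4.52 to 6.29; 0.678 of the mean), was below the vehicle's range. MDM2 at 67.2 CPM and GADD45A at 24.4 CPM were each 1.13 times the vehicle mean and above its range, TP53I3 at 6.92 CPM was 0.787 of it and below, and FAS at 5.54 CPM was within. At the medium dose GDF15 was at 91.1 CPM (87.4 to 94.8; 1.59 times) and CDKN1A at 14.7 CPM (13.3 to 16.3; 1.32 times), and at the low dose at 60.3 and 11.7 CPM, within the vehicle's range, with 1.89% and 1.73% of genes past 2-fold. None of the 59 other p53 targets was past 2-fold at the high dose, with a median of 0.04 against −0.01 over all genes. ASNS was the 1 of 13 ATF4 and CHOP genes past 2-fold and was lower (−1.49), and TOP2A was lower (−1.27) among G2 and mitosis genes. The doses of Aucklandiae Radix, Polygalae Radix and Soshiho-tang differ, and no difference between these extracts was tested. The plot of gene lists sets the 4 extracts side by side.

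**Figure D5:**
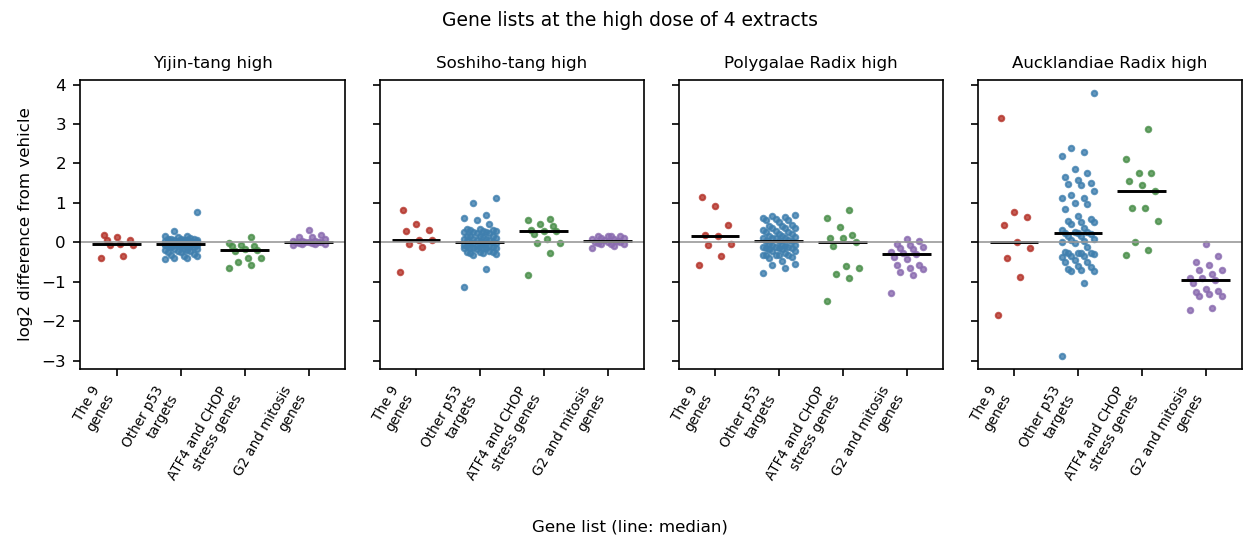
Log2 difference from the vehicle at the high dose of Yijin-tang, Soshiho-tang, Polygalae Radix and Aucklandiae Radix for the 9 genes, other p53 targets, ATF4 and CHOP genes, and G2 and mitosis genes; each point is a gene and each line a list's median. The medians of the ATF4 and CHOP list (1.3) and the G2 and mitosis list (−0.96) lie farthest from 0 in the single Aucklandiae Radix library.

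Genes with a pattern like CDKN1A were ranked by Pearson's r of group mean log2 CPM among 11226 genes, as a description with no test. Over the 25 groups the 5 highest were DUSP5 (0.988), CLCF1 (0.984), CD59 (0.978), RHOF (0.977) and CSRNP1 (0.977), and 1 group weighs heavily: without high-dose Aucklandiae Radix these were 0.925, 0.899, 0.86, 0.858 and 0.85. Over the 19 groups with replicates they were ST3GAL4 (0.916), SULT2B1 (0.913), TMEM45B (0.909), SERPINE2 (0.908) and C4BPB (0.904). Over the 25 groups the same genes were at 0.132, 0.855, 0.838, 0.86 and 0.961, and without high-dose Aucklandiae Radix at 0.418, 0.121, 0.338, 0.552 and 0.808. For GDF15 the 25 groups gave RPP25 (0.932), M6PR (0.916), BRI3 (0.898), PHLDA3 (0.889) and CTNS (0.885), and the 19 groups PHC2 (0.906), FGF19 (0.906), SQSTM1 (0.905), HMOX1 (0.887) and PXDC1 (0.882). Over the 25 groups the latter were at 0.731, −0.28, 0.843, 0.721 and 0.752, so FGF19 changed sign, and over the 19 groups the former were at 0.729, 0.619, 0.501, 0.681 and 0.631. Of these, PHLDA3 is in the p53 target lists. Among the members, the r with CDKN1A over 25 groups was −0.91 for SESN1, 0.897 for TNFRSF10B, −0.859 for BBC3, −0.67 for MDM2, 0.641 for GDF15, 0.362 for TP53I3, 0.212 for GADD45A and −0.14 for FAS. Without high-dose Aucklandiae Radix these were −0.53, 0.671, −0.71, 0.329, 0.832, −0.37, 0.593 and 0.01, with a change of sign for MDM2, TP53I3 and FAS. Over the 19 groups with replicates they were −0.881, 0.442, −0.347, 0.319, 0.625, 0.014, 0.278 and 0.494, in the same order. The groups share library sets and scaling.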

How the data were processed

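The table holds expected counts per gene for 60 libraries, deposited by the authors. The tools in the submitters' processing notes are RSEM 1.3.3, STAR 2.7.3a, Trim Galore 0.6.5 and FastQC 0.11.9, with build GRCh38; the annotation release and strand setting of the counting are not given in the sources used here. Per the labels' protocols, mRNA went into directional libraries sequenced in pairs. Estimated reads can be split between similar genes. Gene symbols were found for 57055 of 60675 identifiers. Positions come from GENCODE 29 on GRCh38, promoters from RefSeq.

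Counts were rounded (89.9% were within 1e-09 of whole) and tested with edgeR 4.0.16 in R 4.3.3 (limma 3.58.1). TMM factors from all 60 libraries (0.899 to 1.06), edgeR's filter on low counts and a quasi-likelihood fit of 54 libraries in 19 groups, with group as the only term, left 16890 genes, all 9 members among them. Genes with Benjamini-Hochberg adjusted p under 0.05 over all genes of a comparison were called, in 30 comparisons. The labels do not say that replicates are separate cultures, so p-values measure the spread between these libraries, which may be technical; no duplicate libraries were found. For the 6 single libraries, log2 ratios used a pseudocount of 0.1 CPM, and called meant at least 2-fold and outside the vehicle's range. Exact binomial intervals cover counting error only. Alternatives were DESeq2 1.42.0, other scalings, no filter, fewer groups, a robust fit, a replicate block and left-out libraries. The steps were tested on simulated data.

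The members and gene lists were chosen with earlier results of these data known. From each list up to 3 called genes with the largest absolute log2 difference are named (for single libraries up to 3 each way), and for CDKN1A and GDF15 the 5 genes with the highest r, among genes with at least 5 CPM in 1 group. CCNG1, PECAM1 and other genes outside that rule were named after their values were seen. A few listed genes are not reported here. Wortmannin, a positive control in the series text, is not analysed here.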

Additional observations from a re-analysis of the deposited data

Results flagged for a closer look

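The step from low to high dose differed between Yijin-tang and Soshiho-tang, the 2 formulas of 1 library set, for 4 of the 9 genes, by edgeR's quasi-likelihood test of the difference itself. The Yijin-tang step minus the Soshiho-tang step was −0.86 (log2, SE 0.14, adjusted p = 0.000121) for CDKN1A, −1.10 (SE 0.21, adjusted p = 0.0017) for GDF15, 0.70 (SE 0.08, adjusted p = 4.09e-07) for SESN1 and −0.67 (SE 0.20, adjusted p = 0.0414) for GADD45A. Over the 10 leave-outs the differences were −1.005 to −0.676 for CDKN1A, −1.249 to −0.785 for GDF15, 0.666 to 0.734 for SESN1 and −0.809 to −0.379 for GADD45A. For CDKN1A, GDF15 and SESN1 the test was passed without each Yijin-tang library. GADD45A was not called without Yijin-tang high replicate 2 (adjusted p = 0.0772), high replicate 3 (0.0879) or low replicate 2 (0.191). Leaving out a Soshiho-tang library leaves a single one in its group. When the 4 groups of the test were fitted alone, none was called: the adjusted p was 0.847 for CDKN1A, GDF15 and GADD45A and 0.647 for SESN1. Without both libraries that stood apart, which leaves a single high-dose Soshiho-tang library, the differences were −0.57, −0.68, 0.71 and −0.36 for CDKN1A, GDF15, SESN1 and GADD45A.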

How the results depend on the processing

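Against the vehicle, 6 member comparisons were called; 3 were with no filter on low counts and 13 without Yijin-tang low replicate 2 and Soshiho-tang high replicate 3. Leaving out 1 library gave 2 to 13: 3 without vehicle replicate 1 or 2, 2 without replicate 3 and 13 without Yijin-tang low replicate 2. Between high and low dose, 8 were called, 5 without both libraries and 4 when only the groups compared were fitted, with leave-outs from 4 (without Yijin-tang high replicate 2) to 9; it was 5 without Yijin-tang low replicate 2 or high replicate 3. Between extracts 3 were called, with leave-outs of 3 to 4. For differing dose steps, 4 were called, with leave-outs of 3 to 5, and 0 when only the groups compared were fitted by edgeR, where 4 had an unadjusted p under 0.05 and DESeq2 on all groups called 4. That fit has fewer samples. With library totals as the only scaling GADD45A left that list (−0.57, adjusted p = 0.0549), and 4 single-library values in place of 3 were past 2-fold. A fit with the replicate number as a block called 6, 9, 3 and 4; same-numbered libraries did not deviate together (r −0.14 to 0.22). In the 59 other p53 targets, leaving out both libraries, an alternative chosen after seeing the data, changed the counts at low-dose Yijin-tang from 4 higher and 6 lower to 1 and 2, while the share of all genes called there went from 12.1% to 2.08%. No member value called with all libraries changed sign. Values that were not called did: without both libraries, GDF15, GADD45A and CDKN1A at low-dose Yijin-tang went from 0.07, 0.05 and 0.05 to −0.24, −0.24 and −0.06, TNFRSF10B there from −0.01 to 0.13, and TP53I3 at high-dose Soshiho-tang from 0.06 to −0.09. Groups of 2 or 3 limit what can be called, and counts without a Soshiho-tang library include comparisons with a single library in a group.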
